A study of Mus musculus with 6 samples.

Results

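The 41 genes described here carry a cell through G2 and mitosis. They were taken by symbol from a fixed list of mitotic kinases, checkpoint proteins, kinetochore proteins, motors and cytokinesis factors, and all 41 matched a single row each of the 21448 genes in the deposited table. RNA was measured in B cells from primary mouse lymphomas of the strain E mu-Myc transgenic, where the Myc transgene is under an immunoglobulin heavy chain enhancer active in the B lineage. Both groups carry that transgene. The 3 wild type libraries and the 3 PRDM15 knockout (PRDM15KO) libraries came from cells grown with IL7, and per the protocols 50 nM 4-hydroxytamoxifen (OHT) was given for 24 hours to delete Prdm15, with ethanol for the controls, and cells were collected 3 days later. Which libraries received OHT is inferred from the genotype labels, and an effect of OHT itself cannot be told apart from one of the deletion. The 3 libraries of a group are described as biological replicates, without word on whether equal numbers mark 1 mouse or 1 culture.

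Entry into mitosis is driven by CDK1 bound to cyclin B, which Polo-like and Aurora kinases and CDC25 phosphatases help to switch on. The spindle checkpoint then holds back the anaphase promoting complex, a ubiquitin ligase, until every kinetochore is attached, after which cyclin B and securin are destroyed, sister chromatids part and the cell divides. The transcripts of most of these proteins are low in G1 and peak in G2 and mitosis, since their promoters are held silent by the DREAM complex and later turned on by B-MYB, FOXM1 and NF-Y. In Myc-driven B cell lymphomas a large share of cells is in cycle, and these transcripts serve as markers of proliferation.

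The shared control of these genes is written in their promoters by a pair of short elements, shown first because most of the 41 genes hold both. The cell cycle genes homology region (CHR), here the letters TTTGAA, is bound by the MuvB core of DREAM, and the CCAAT box by NF-Y. The stretches below are the 150 bases before the annotated start of the 4 genes that had both elements in that stretch, among the genes whose values are given in every library below. Capitals mark CHR (TTTGAA, or TTCAAA where it lies on the other strand) and CCAAT (or ATTGG). Sequences are from RefSeq, build GRCm38.p6, read 5′ to 3′ on the gene's strand, and the deposited values were made on another build, mm9.
Top2a (chr11:99024190-99024339, minus strand): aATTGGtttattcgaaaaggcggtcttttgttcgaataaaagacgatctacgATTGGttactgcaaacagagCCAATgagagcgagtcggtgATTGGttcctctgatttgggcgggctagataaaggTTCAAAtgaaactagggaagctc
Mki67 (chr7:135716380-135716529, minus strand): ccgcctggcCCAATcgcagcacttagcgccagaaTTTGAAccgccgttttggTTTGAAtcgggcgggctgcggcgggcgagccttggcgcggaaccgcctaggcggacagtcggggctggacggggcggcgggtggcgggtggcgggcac
Cdk1 (chr10:69352913-69353062, minus strand): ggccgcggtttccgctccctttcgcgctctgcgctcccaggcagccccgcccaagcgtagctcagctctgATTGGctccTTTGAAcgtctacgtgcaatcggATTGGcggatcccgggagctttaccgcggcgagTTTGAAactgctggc
Ube2c (chr2:164769779-164769928, plus strand): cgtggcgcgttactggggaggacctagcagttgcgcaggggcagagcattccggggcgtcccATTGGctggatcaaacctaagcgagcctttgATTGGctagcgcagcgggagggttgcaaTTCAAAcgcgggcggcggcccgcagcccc

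In many other members the CHR lies just after the annotated start. The 4 stretches of 30 bases below show it, in capitals, in the motor gene Kif4, the kinetochore gene Cenpf, the kinase gene Plk1 and the checkpoint gene Bub1b, whose CHR begins 20, 3, 31 and 41 bases after the start.
Kif4 (chrX:100626072-100626101, plus strand): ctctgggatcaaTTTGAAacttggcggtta
Cenpf (chr1:189688067-189688096, minus strand): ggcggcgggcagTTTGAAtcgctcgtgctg
Plk1 (chr7:122159453-122159482, plus strand): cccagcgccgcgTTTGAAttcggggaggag
Bub1b (chr2:118598231-118598260, plus strand): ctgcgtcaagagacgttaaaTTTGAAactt

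Promoters of 300 bases, 250 before and 50 after the start, were matched by symbol for 35 of the 41 genes and searched on both strands, and overlapping matches were counted for each motif. CHR was found in 26 of the 35 (74.3%), against 11.6% of 8287 other tested genes with a promoter and 18.1% of all 27025 genes of the RefSeq table. CCAAT was found in 27 (77.1%), against 39.4% and 37.9%, and both elements in 23 (65.7%), against 4.83% and 7.12%. In 24 of the 26 genes with CHR it began within 50 bases of the start on either side, and 20 of all 35 promoters held CCAAT at least 2 times (57.1%), against 15.9% of the other tested genes with a promoter. The MYC-binding E-box CACGTG was in 2 of the 35 promoters (Ttk and Anln, 5.71%, against 10.9% and 7.24%), and the E2F letters TTTCCCGC or TTTGGCGC in 0, against 3.44% and 1.63%. Among 106 matched mitosis genes outside the 41, which are described further below, 38.7% held CHR, 52.8% CCAAT and 25.5% both. Among S phase and replication genes, 6 of 37 held CHR (16.2%), 22 CCAAT (59.5%) and 12 the E2F letters (32.4%). A match describes the letters only and does not show that a factor binds there.

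**Figure D1:**
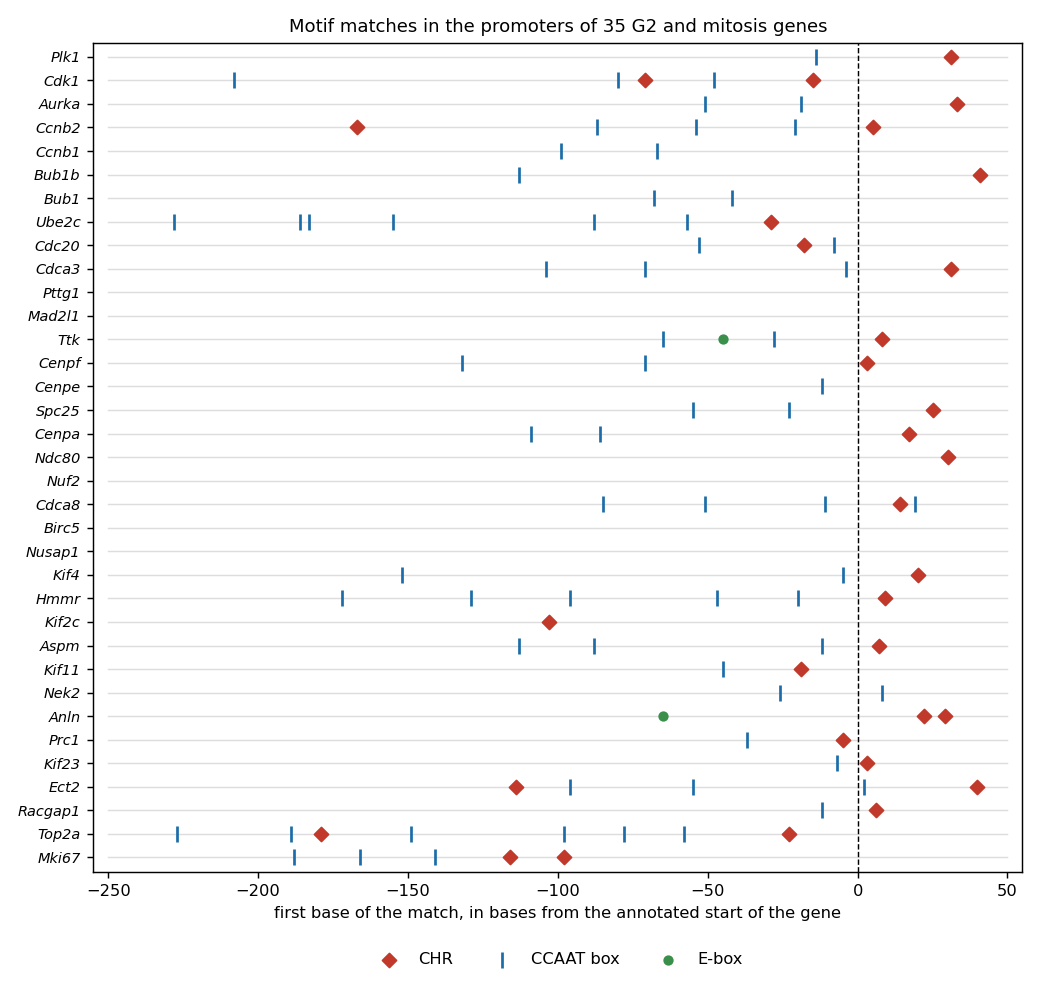
Places of CHR (diamonds), CCAAT (bars) and E-box (circles) matches in the promoters of 35 G2 and mitosis genes, by the first base of the match in bases from the annotated start of the gene (horizontal axis; dashed line at 0). CHR lies within 50 bases of the start in 24 of the 26 genes that hold it, with the CCAAT boxes mostly before it.

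Depth was 28852951 to 47255421 reads assigned to genes per library, and each member had between 163 (Pttg1) and 112832 (Top2a) reads in a library. Over all genes, no 2 libraries agreed within sampling noise. Values are on the CPM scale (reads scaled to an effective library size), not divided by gene length, so levels are compared between libraries and never between genes. Prdm15 itself stood at 29.2, 47.3 and 41.3 in wild type (from here on values are given for replicates 1, 2 and 3 in turn) and at 40.2, 40.9 and 39.2 in PRDM15KO, with overlapping groups and p = 1 in an exact two-sided permutation test. Because reads of all exons are added up, this value cannot show whether an exon was deleted, and the groups rest on the labels. The B cell label was checked with 10 B lineage markers, which were all tested. They summed to 3391, 3684 and 4624 in wild type and to 2980, 3095 and 3935 in PRDM15KO, lower in each pair. Single markers differed by -1.15 to 1.64 on the log2 scale (PRDM15KO minus wild type). Their median was -0.16, against -0.03 over all tested genes and -0.10 over the 41 genes. Whether the share of B cells differed was not tested. The 15 myeloid markers, led by Ctsd and Lyz2, summed to 204 to 459 in wild type and to 151, 5064 and 2374 in PRDM15KO replicates 1, 2 and 3. None of these 15 markers was at 0 in every library. Granulocyte, erythroid and fibroblast markers had no tested member and summed to at most 2.86, T and NK cell markers to 21.7 to 79.4 and endothelial markers to 52.4 to 104.

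Transcripts of G2 and mitosis were slightly lower in the PRDM15KO libraries, and no single gene of the 41 passed the test. The median log2 difference (PRDM15KO minus wild type, on the log2(value + 1) scale) was -0.10, against -0.03 over all 10533 tested genes, and single genes lay between -0.36 (Nusap1) and 0.09 (Nek2). With the replicate number in the fit (paired), 0 of 41 passed limma's test at an adjusted p under 0.05, where 0.873% of all tested genes passed. Without it 0 passed as well, where 0.00949% of all did. At an unadjusted paired p under 0.05, 16 of 41 were lower, against 13.6% of all tested genes, and 0 were higher, against 7.41%. The 16 became 9 under quantile normalization and 7 with equal library totals. Over all tested genes, in either direction, 2213 passed that level as deposited and 2224 and 2229 in these scalings. In the unpaired fit 1 was lower at that level (Mki67), against 2.91%, and 0 were higher, against 1.16%.

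Counted over the 3 pairs of equal replicate number, 29 of 41 members were lower in PRDM15KO in all 3 (29.9% of all tested genes were) and 0 were higher in all 3 (16.7%). Within pair 1, 31 of 41 were lower, where 59.7% of all tested genes were lower, and within pairs 2 and 3 the counts were 37 (50.3%) and 40 (61.0%). The median difference was -0.07, -0.14 and -0.13 in pairs 1, 2 and 3, against -0.05, -0.0016 and -0.04 over all tested genes. The deposited scaling bears on these counts: with equal library totals 15 of 41 were lower in all 3 pairs (20.0% of all), and under quantile normalization 21 (25.6%). The members' median was -0.05 and -0.07 in these scalings, where the median of all genes was 0.02 and -0.01, so it lay below the median of all genes in each. The 41 genes share the same libraries and are not independent observations, so these counts describe the list and test nothing. In bulk RNA, fewer cells in G2 and mitosis and less of these transcripts per cell cannot be told apart. The myeloid transcripts were high in PRDM15KO replicates 2 and 3, and their part in the lower values of pairs 2 and 3 was not tested. In pair 1, where they summed to 204 and 151, 31 of 41 members were lower as deposited. With equal totals 18 of 41 (43.9%) were lower in pair 1, near the 42.2% of all tested genes, and the members' median there was 0.03, so the direction in pair 1 depends on the scaling.

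**Figure D2:**
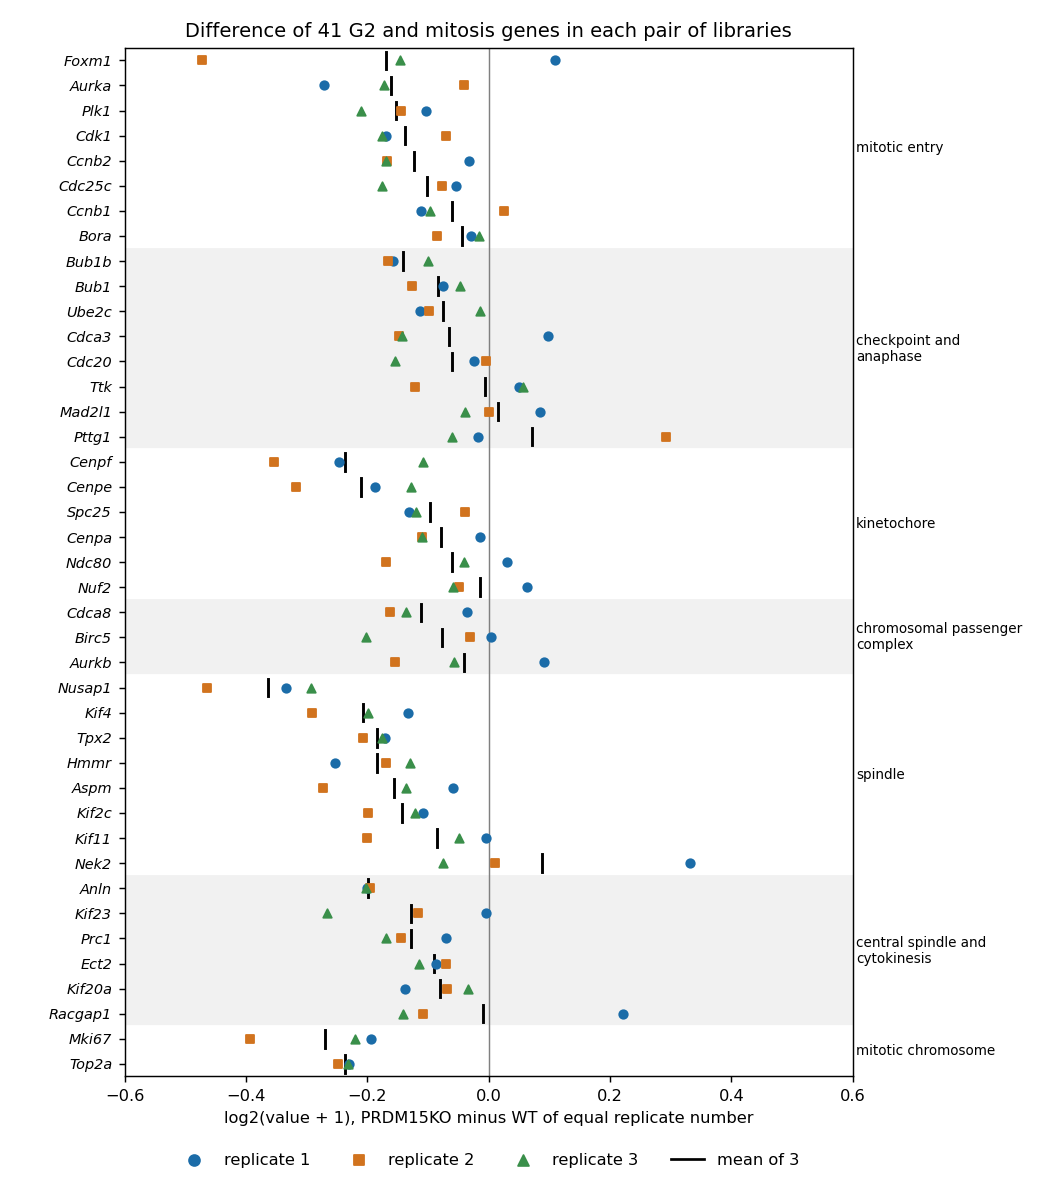
Difference in log2(value + 1) between PRDM15KO and wild type libraries of equal replicate number (horizontal axis) for the 41 G2 and mitosis genes, grouped by role (shaded blocks), with 1 symbol per pair and a black bar for the mean of 3. Symbols lie left of 0 in all 3 pairs for 29 genes and right of 0 in all 3 for none; Nusap1 lies farthest left and Nek2 has its pair 1 symbol at 0.33.

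Among the genes that start mitosis, the kinases Plk1, Cdk1 and Aurka had the smallest paired p, and none of the 8 passed the test. Plk1, the Polo-like kinase that activates CDC25 and acts at centrosomes and kinetochores (ENSMUSG00000030867), was at 80.1, 103.6 and 119.0 in wild type and at 74.5, 93.6 and 102.7 in PRDM15KO. Each pair was lower but the groups overlapped widely (log2 difference -0.15, 95% interval of the paired fit -0.28 to -0.02, paired adjusted p = 0.203). The unpaired 95% interval was -0.60 to 0.30. Cdk1, the mitotic kinase itself (ENSMUSG00000019942), was at 263.0, 245.0 and 304.0 and at 233.6, 233.3 and 269.1 (-0.14, -0.27 to -0.01, adjusted p = 0.222). Only the PRDM15KO replicate 3 library reached into the wild type range of Cdk1. Aurka, the Aurora kinase of spindle poles (ENSMUSG00000027496), was at 84.2, 107.3 and 136.5 and at 69.6, 104.3 and 121.0 (-0.16, adjusted p = 0.237), with the smallest difference in pair 2.

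Cyclin B transcripts had small differences too. Ccnb1, cyclin B1, had a log2 difference of -0.06 and was above wild type in pair 2 (0.03), while Ccnb2, cyclin B2, was at -0.12 and lower in each pair. Cdc25c, the phosphatase that removes the inhibitory phosphates from CDK1, was at -0.10, and Bora, the cofactor with which Aurora A activates PLK1, at -0.04. Foxm1, a transcription factor that turns on many of the genes described here, was the least even of the 8, with 48.8, 54.6 and 69.8 in wild type and 52.7, 39.1 and 62.9 in PRDM15KO. Its pair differences of 0.11, -0.47 and -0.15 did not point one way (paired adjusted p = 0.444). Of the genes of mitotic entry, all 8 had a mean difference below 0 as deposited and 6 were lower in all 3 pairs. With equal totals 3 of the 8 were lower in all 3 pairs. The shares of all tested genes were 29.9% as deposited and 20.0% with equal totals.

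The spindle checkpoint and the exit from mitosis stood closest to no difference, with a median of -0.06 over 8 genes. Of these, 4 were lower in all 3 pairs as deposited (50%, against 29.9% of all tested genes). With equal totals it was 1 (12.5%, against 20.0%). Bub1b, whose product BUBR1 inhibits the anaphase promoting complex (ENSMUSG00000040084), was at 399.6, 467.7 and 713.4 in wild type and at 357.9, 416.6 and 665.5 in PRDM15KO. The paired differences were -0.16, -0.17 and -0.10, while the wild type mean was 527 ± 165 (SD, n = 3), so replicates differed by more than the groups (paired adjusted p = 0.215). Bub1, a checkpoint kinase at kinetochores, was at 176.2, 186.3 and 197.7 and at 167.0, 170.5 and 191.3 (-0.08, adjusted p = 0.368). Ube2c, the ubiquitin-conjugating enzyme of the anaphase promoting complex, was at 83.9, 103.7 and 147.4 and at 77.5, 96.8 and 145.9 (-0.08, adjusted p = 0.435). The checkpoint genes Mad2l1 (0.02) and Ttk (-0.0057) had almost equal means, with 95% paired intervals of -0.12 to 0.15 and -0.16 to 0.15. Cdc20, which activates the anaphase promoting complex, was at -0.06 and Cdca3, a trigger of mitotic entry, at -0.07. Pttg1, securin, was the member with the fewest reads, at 5.50, 5.49 and 4.96 and at 5.42, 6.95 and 4.72, with no common direction.

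At the kinetochore, the 2 lowest differences were in large outer proteins, and 4 of 6 genes were lower in all pairs (3 with equal totals). Among all tested genes 29.9% were (20.0% with equal totals). Cenpf, a large protein of the outer kinetochore (ENSMUSG00000026605), was at 275.9, 361.7 and 427.1 in wild type and at 232.3, 282.7 and 396.1 in PRDM15KO (log2 difference -0.24, paired interval -0.40 to -0.07, adjusted p = 0.156). Cenpe, the kinesin that moves chromosomes to the spindle equator (ENSMUSG00000045328), was at 392.4, 346.9 and 367.5 and at 344.4, 278.0 and 336.3 (-0.21, -0.36 to -0.06, adjusted p = 0.159). All 3 PRDM15KO values of Cenpe lay below all 3 wild type values, by a small margin (346.9 against 344.4). The genes of the NDC80 complex, which grips microtubules, were nearer to 0, Spc25 at -0.10, Ndc80 at -0.06 and Nuf2 at -0.01, and Spc25 was at 59.1, 55.4 and 64.0 and at 53.9, 53.9 and 58.8 (paired adjusted p = 0.361). Cenpa, the histone H3 variant that marks the centromere, was at -0.08.

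Nuf2 showed the largest effect of the replicate number in the whole list. Its values were 95.02, 120.0 and 216.0 in wild type and 99.3, 116.0 and 207.4 in PRDM15KO, so replicate 3 lay at about the same height in both groups, and the replicate number took up 99.6% of the sum of squares of its 6 log2 values and the label 0.024%. The unpaired 95% interval of its difference ran from -0.96 to 0.93, the paired one from -0.15 to 0.12.

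The chromosomal passenger complex, which corrects wrong attachments and later steers cytokinesis, had 1 of its 3 genes lower in all pairs (0 with equal totals). That is 33.3%, near the 29.9% of all tested genes (20.0% with equal totals). Cdca8, borealin, was at 102.4, 122.8 and 135.5 in wild type and at 99.8, 109.5 and 123.2 in PRDM15KO (-0.11, paired adjusted p = 0.295). Birc5, survivin, was at 132.0, 144.6 and 187.4 and at 132.3, 141.5 and 162.7 (-0.08, adjusted p = 0.502), nearly equal in pair 1. Aurkb, the Aurora kinase of the complex, was at 141.0, 159.5 and 162.1 and at 150.3, 143.2 and 155.6 (-0.04, adjusted p = 0.747), and its mean difference turned to 0.01 with equal totals. The groups of all 3 genes overlapped.

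Spindle genes had the most members with a low paired limma p as deposited. At an unadjusted p under 0.05, 6 of 8 were lower, against 13.6% of all tested genes. This count by role was made on the deposited scaling only. Nusap1, which binds and bundles spindle microtubules (ENSMUSG00000027306), was at 184.5, 245.1 and 232.8 in wild type and at 146.2, 177.4 and 189.8 in PRDM15KO, a difference in means of -22.5%. The groups overlapped only because wild type replicate 1 (184.5) lay below PRDM15KO replicate 3 (189.8). Its log2 difference of -0.36 (SE 0.06 in the paired fit, 95% interval -0.51 to -0.22) was the lowest of the 41, and its paired adjusted p of 0.0666 missed the threshold. It was 0.0202 without pair 1, 0.254 without pair 2 and 0.287 without pair 3. In RefSeq, Nusap1 shares 208 bases with the gene Oip5, and Aurka, Anln, Bora, Cdc20, Foxm1, Prc1 and Kif20a also overlap another protein-coding gene. The longest such overlaps are those of Prc1 with Rccd1 (21669 bases) and Kif20a with Cdc23 (4930 bases). Kif4, Ect2, Kif11, Nek2, Cdc25c, Top2a and Tpx2 overlap a pseudogene or noncoding RNA gene, for Kif4 over 62763 bases with Gm52438. The libraries are directional per the protocols, but whether reads were counted by strand is unknown here, so the values of all these genes are uncertain to that extent.

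Tpx2, which activates Aurora A on the spindle, was at 208.9, 258.6 and 270.1 in wild type and at 185.5, 223.9 and 238.9 in PRDM15KO (log2 difference -0.18, paired interval -0.30 to -0.07, adjusted p = 0.144). Kif4, a chromosome-bound kinesin (ENSMUSG00000034311), was at 145.8, 165.6 and 177.0 and at 132.9, 135.0 and 154.0 (-0.21, -0.35 to -0.07, adjusted p = 0.148). Both genes were lower in each pair, with pair differences of -0.17 to -0.21 for Tpx2 and -0.13 to -0.29 for Kif4. Hmmr, a spindle pole protein (-0.18), Aspm, which focuses spindle poles (-0.16), and Kif2c, a microtubule depolymerase (-0.14), were also lower in all 3 pairs. Kif11, the bipolar kinesin that pushes spindle poles apart, was at -0.09. Nek2, a kinase that splits centrosomes, was the exception, at 0.09 with pair differences of 0.33, 0.01 and -0.08.

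**Figure D3:**
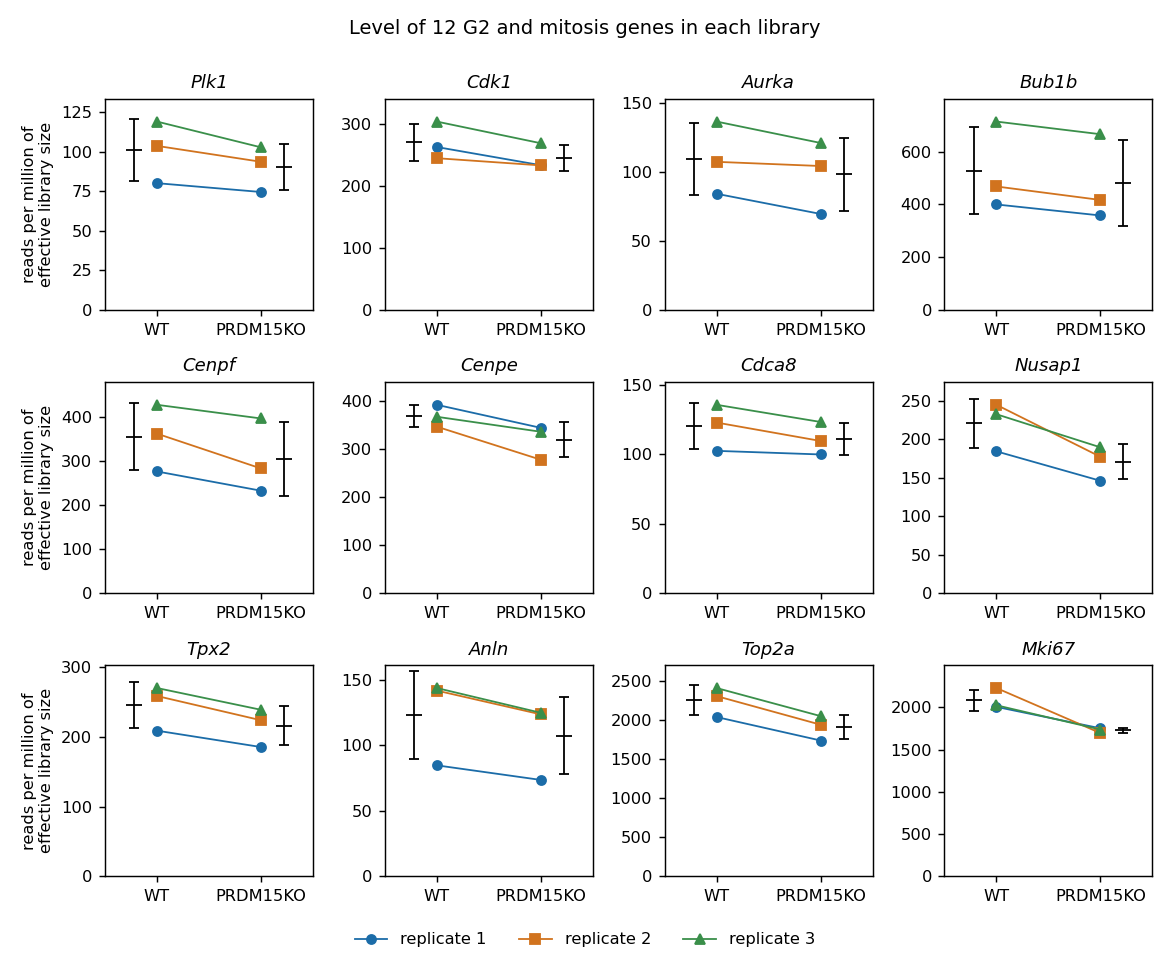
Level of 12 G2 and mitosis genes on vertical axes that start at 0 and give reads per unit of effective library size (CPM scale). Lines join the wild type and PRDM15KO libraries of 1 replicate number, and the bars beside them give each group's mean ± SD (n = 3). The 12 were taken from the genes with the smallest paired p of their role, so their common slope follows from that choice. Lines slope down in each pair for all 12, as the values did for 29 of all 41 genes. The starting heights differ, as for Bub1b, which runs from 399.6 to 713.4 among wild type libraries.

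In the central spindle and cytokinesis group, 5 of 6 genes were lower in all pairs as deposited, by small amounts (29.9% of all tested genes were). With equal totals 1 of 6 was lower in all pairs (20.0% of all), and under quantile normalization 3 of 6 (25.6%). Anln, anillin, the scaffold of the cleavage furrow (ENSMUSG00000036777), was at 84.7, 141.7 and 143.7 in wild type and at 73.6, 123.6 and 124.8 in PRDM15KO. Its pair differences were alike, -0.20 in each, which gave the second smallest paired p of the list (adjusted p = 0.137), while the 2 groups overlapped through the low replicate 1. Prc1, which bundles antiparallel microtubules, was at 154.5, 198.2 and 230.2 and at 147.0, 179.2 and 204.7 (-0.13, adjusted p = 0.235). Kif23, the motor of centralspindlin, was at 124.3, 139.9 and 185.1 and at 124.0, 128.9 and 153.8 (-0.13, adjusted p = 0.326), nearly equal in pair 1. The furrow activator Ect2 (-0.09) and the kinesin Kif20a (-0.08) followed, and Racgap1, the partner of Kif23 in centralspindlin, differed by -0.01, with 0.22 in pair 1 and -0.11 and -0.14 in pairs 2 and 3. For Racgap1 the sign of the mean turned to 0.05 with equal totals.

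The 2 genes of mitotic chromosomes were both lower in each pair as deposited, with a median of -0.25, but not under quantile normalization. Top2a, the topoisomerase that untangles sister chromatids (ENSMUSG00000020914), was at 2042, 2311 and 2414 in wild type and at 1742, 1944 and 2054 in PRDM15KO, a difference in means of -15.2%. Its pair differences of -0.23, -0.25 and -0.23 were among the most even (paired adjusted p = 0.152). Mki67, which coats mitotic chromosomes and is the common marker of proliferation (ENSMUSG00000031004), was at 2004, 2227 and 2023 and at 1751, 1695 and 1736, a difference in means of -17.2%. The groups did not overlap for Mki67 (log2 difference -0.27, paired interval -0.46 to -0.08, adjusted p = 0.155). The exact two-sided permutation p was 0.1, the smallest that 3 against 3 libraries allow. Under quantile normalization 0 of the 2 were lower in all pairs, their median was 0.06 in pair 1 and -0.05 over the pairs, and Top2a was at -0.0073 and Mki67 at -0.09. That method gives each value the mean over libraries at its rank. For values as high as these it can remove a difference that leaves the rank unchanged, so it does not decide their direction. Cenpf, at -0.24 as deposited, was at -0.22 under it. With equal totals both were lower in each pair (median -0.20). Cenpe and Mki67 were the 2 of 41 genes whose groups did not overlap with PRDM15KO lower, where 6.29% of all tested genes were such, and 0 had PRDM15KO higher, where 3.21% were.

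Count tests on the reads recovered from the values gave a median difference of -0.08 over the 41 genes, and 1 of 4 called any of them. DESeq2 with the replicate number called Nusap1 (adjusted p = 0.00052), Top2a (0.000792) and Mki67 (0.0152), each lower, and 0 higher, where 3.99% and 3.02% of all tested genes were called lower and higher. Quasi-likelihood tests in edgeR called 0 of 41 with the replicate number (0.370% of all tested genes) and 0 without it (0%), with 9 and 2 members at an unadjusted p under 0.05. Without the replicate number DESeq2 called 0 of 41 (1.05% of all genes with an adjusted p). The 95% paired limma intervals of all 41 genes lay between -0.51 (Nusap1) and 0.40 (Pttg1) on the log2 scale.

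The replicate number accounted for more of the spread than the label did, in these genes as in most tested genes. It also takes up more degrees of freedom than the label, so part of a larger share is built in. Its share of the sum of squares over 6 libraries had a median of 87.8% over the 41 genes and the label's share one of 7.38%, against 74.5% and 9.56% over all tested genes. It exceeded the label's share in 35 of 41 genes, against 83.1% of all tested genes. The 6 exceptions were Cdca3, Cenpe, Nusap1, Kif4, Top2a and Mki67, and in Mki67 the label took up 87.7% and the replicate number 2.90%. Wild type replicate 3 was the highest of the wild type libraries in 34 of 41 genes (37.5% of all tested genes) and PRDM15KO replicate 3 the highest of its group in 34 (30.9%). Wild type replicate 1 was the lowest of its group in 35 genes (47.8%) and PRDM15KO replicate 1 in 30 (52.2%). The median member lay at -0.17, 0.07 and 0.24 (wild type) and at -0.21, -0.08 and 0.12 (PRDM15KO) around its own mean, on the log2 scale and in the order of the numbers. In Kif20a and Cdc25c replicate 2 was the highest in both groups (for Kif20a 376.7 in wild type and 359.1 in PRDM15KO).

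**Figure D4:**
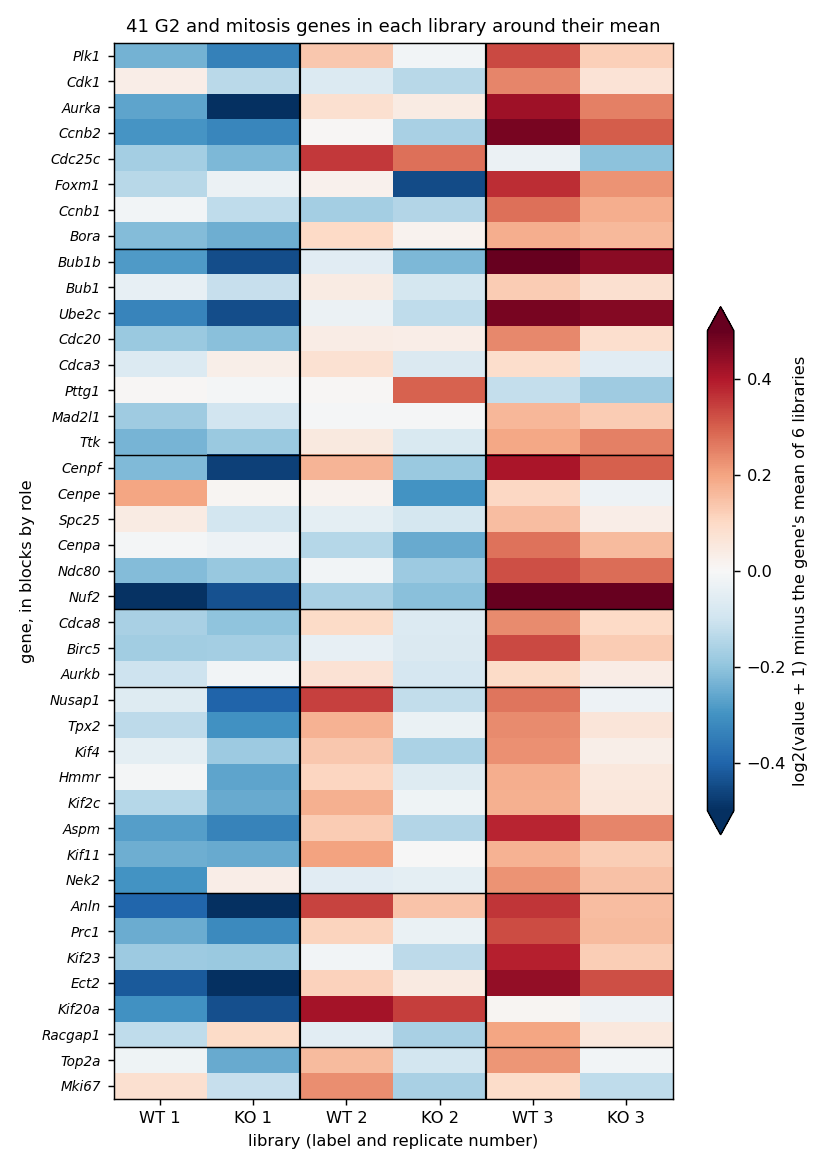
Log2(value + 1) of the 41 G2 and mitosis genes (rows, in blocks by role) in each library (columns, set side by side by replicate number) minus the gene's own mean of 6 libraries, in color. Replicate 1 columns are mostly blue and replicate 3 columns mostly red. In the PRDM15KO columns of replicates 1, 2 and 3, 31, 37 and 40 of the 41 genes are lower than in the wild type partner. Mki67, in the last row, is split by label instead.

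Since the replicates differ this much, leaving out single libraries moved the unpaired median. It was -0.24 without wild type replicate 1 and -0.22 without PRDM15KO replicate 3, but -0.0046 without wild type replicate 3 and -0.02 without PRDM15KO replicate 1, where 22 and 25 of 41 genes lay below 0. The median of all tested genes was -0.05, -0.04, -0.0073 and 0.0090 in these 4 settings, so without wild type replicate 3 the members no longer lay below it. Leaving out whole pairs moved it less, to -0.13, -0.10 and -0.10 without pair 1, 2 and 3, with 40, 35 and 36 genes below 0. Without PRDM15KO replicates 2 and 3, which held the myeloid transcripts, it was -0.27, where all genes were at -0.11, a comparison of a lone library with all wild type ones that ignores the pairs.

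Members with CHR in the promoter were lower in all 3 pairs in 22 of 26 cases, and those without it in 3 of 9, with median differences of -0.13 and -0.06. With equal totals the counts were 12 of 26 and 2 of 9 (20.0% of all tested genes). Under quantile normalization they were 16 of 26 (61.5%) and 4 of 9 (44.4%), against 25.6% of all, so the 2 shares lay nearer each other. Among the other tested genes with both CHR and CCAAT, 29.8% of 400 were lower in all pairs, close to the 29.1% of all 8287 others with a promoter, and their median was -0.03. The split of the members is a description without a test, and Nusap1, the member with the lowest difference, held neither element.

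The wider mitotic machinery outside the 41 genes was examined in 9 lists with 128 tested genes, chosen by function. Of these, 1 gene passed limma's paired test, where 0.873% of all tested genes did. DESeq2 with the pairs called 4, all lower, where it called 3.99% of all tested genes lower. In edgeR with the pairs 0 were called, where 0.370% of all were. The DESeq2 calls, singled out after their values were seen, were Pimreg, Psrc1 (log2 difference -0.47, DESeq2 adjusted p = 0.0446), the condensin subunit gene Ncaph2 (-0.33, 4.60e-06) and the centromere gene Cenpu (-0.65, 0.00201). Cenpu was also called by DESeq2 without the pairs (0.0436), and in the paired limma fit its adjusted p was 0.0506. Over the 128 genes the median difference was -0.08. In all pairs 56 were lower (43.8%, against 29.9% of all tested genes) and 10 higher (7.81%, against 16.7%). Among 28 further spindle genes 1 was called lower and 0 higher in the paired fit, and 16 were lower in all pairs (median -0.11). The gene called was Pimreg, a mitotic regulator of the metaphase to anaphase step, which fell from 32.03, 54.9 and 35.3 in wild type to 20.3, 31.8 and 24.8 (log2 change -0.63, paired limma adjusted p = 0.0455). Its paired adjusted p was 0.0669 in edgeR and 5.03e-05 in DESeq2. The unpaired limma fit did not call it, and the paired fit called no gene at all without pair 2 or without pair 3, which holds for Tk1 below as well. Ckap5 and Stmn1, which control microtubule growth and are named by the rule on mean value, were at -0.08 and -0.15.

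In the other lists no gene passed limma's paired test, which the counts of 0 below refer to. Over all tested genes, 29.9% were lower and 16.7% higher in all pairs. Among 11 tested further regulators of entry, 0 passed and the median was -0.10, with Ccna2, cyclin A2, at -0.03 and the phosphatase Cdc25b at -0.18. Of 8 condensin genes, which compact chromosomes, 0 passed and 5 were lower in all pairs (median -0.10), with Smc4 at -0.15 and Smc2 at -0.02. In 25 further kinetochore genes 0 passed and the median was -0.08 (Knl1 at -0.02, Cenpb at -0.08), and in 4 partners of the passenger complex 0 passed (median -0.08), with Incenp at -0.0088 and the cohesin protector Sgo2a at -0.12. Of 17 genes of the anaphase promoting complex 0 passed, 8 were lower and 3 higher in all pairs (median -0.07), with Anapc5 at -0.13 and Anapc1 at 0.05. The 8 further checkpoint genes (median -0.02, with Bub3 at -0.09 and Kntc1 at -0.16) and 12 cohesin genes (-0.0080, with Rad21 at 0.03 and Stag2 at 0.05) had 0 called. The DREAM and MuvB list, the complexes that repress and activate mitotic promoters, had 0 of 15 called and a median of -0.03, with Rbbp4 at -0.02 and Tfdp1 at -0.03. With equal totals the medians of the DREAM, checkpoint and cohesin lists were above 0.

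S phase and DNA replication genes, the neighbouring step of the cycle, had a median near 0. Of 47 tested genes, 14 were lower in all pairs (29.8%, against 29.9% of all tested genes) and 10 higher (21.3%, against 16.7%). With equal totals 6 were lower in all pairs (12.8%, against 20.0%). The median was -0.0086, or 0.05 with equal totals, against -0.10 and -0.05 for the G2 and mitosis genes in the same scalings. Whether the lists differ was not tested. Uhrf1, which keeps DNA methylation through replication, was at 0.02 and Rrm1, a ribonucleotide reductase subunit, at -0.02. The sole S phase gene past limma's paired test was Tk1, thymidine kinase, which fell from 60.8, 64.7 and 41.5 to 26.2, 33.4 and 16.9 (log2 change -1.12, paired limma adjusted p = 0.0255, and 0.0269 by edgeR with the pairs). All 3 PRDM15KO values of Tk1 lay below all 3 wild type values. DESeq2 with the pairs called 3 of the 47 lower, as many as of the 41 members, where it called 3.99% of all tested genes lower. They were Tk1 (adjusted p = 1.31e-18), the primase gene Prim2 (0.0206) and the transcription factor gene E2f2 (0.00201). Of 12 tested CDK inhibitors and quiescence genes 0 passed limma's paired test (median -0.03), and DESeq2 with the pairs called 1 lower, Gadd45b (-0.45, adjusted p = 0.000961), with Ccng1 at 0.12 and Btg2 at 0.08.

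**Figure D5:**
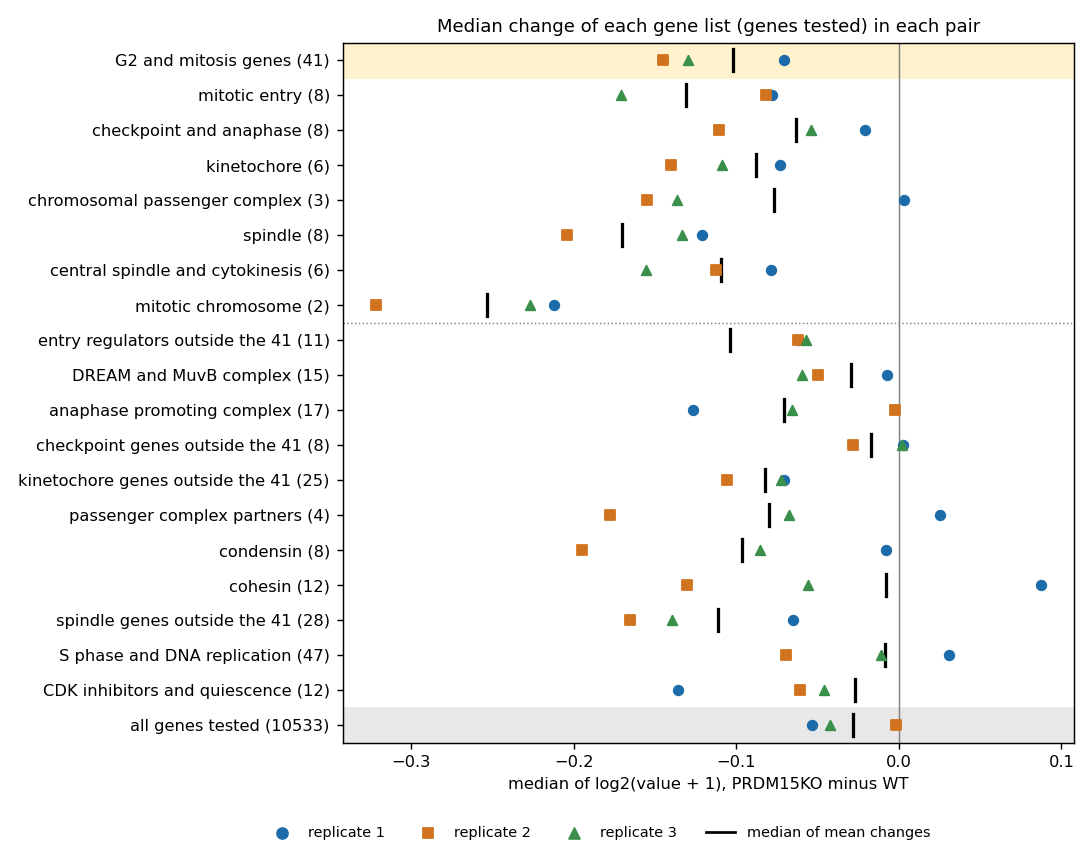
Median difference in log2(value + 1) between PRDM15KO and wild type (horizontal axis) of each gene list, with the number of genes tested in brackets, as 1 symbol per pair of libraries and a black bar for the median of the genes' mean differences. The 41 G2 and mitosis genes (top) lie at -0.07, -0.14 and -0.13 in pairs 1, 2 and 3, the S phase list near 0, and all tested genes (bottom) at -0.03.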

How the data were processed

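RNA-seq of lymphoma B cells gave 6 libraries, 3 wild type and 3 PRDM15KO, grouped by their titles. Build mm9 and the tools HTSeq, CASAVA, edgeR and STAR 2.4.2a are listed, without their roles, in the submitters' processing notes. Which annotation was used, and whether counting used strand, is unknown here. The deposited table calls its values FPKM, but they are a signal that the authors made by dividing reads per gene by an effective library size: with a tolerance of 0.01 reads, 100% of values in each library were whole multiples of a single step. Recovered reads came to 38581112, 40558008 and 47255421 (wild type) and 28852951, 40119748 and 41204788 (PRDM15KO).

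The 10533 genes whose mean over libraries reached 1 were tested with limma 3.58.1 in R 4.3.3 on log2(value + 1), trended variance, two-sided, Benjamini-Hochberg over all tested genes, threshold 0.05. Differences on this scale understate those of low genes. Libraries of equal number were compared as pairs, though the labels do not say what equal numbers share. Across genes, the correlation of their departures from their group mean was 0.733, 0.726 and 0.837. For unequal numbers it was -0.606 to -0.139. The unpaired fit was set as the main one and the paired fit is given beside it. Most intervals and adjusted p of single genes are those of the paired fit. No 2 libraries agreed within sampling noise (chi-square per degree of freedom 49.5 or more). Counts were tested with edgeR 4.0.16 and DESeq2 1.42.0. Scripts were tested on simulated data. Plots used Python 3.11.15 and matplotlib 3.10.9. Unpaired p-values of the fits rest on the spread of these libraries within groups. Paired ones rest on the spread left once the replicate number is taken out.

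The members and gene lists were chosen with earlier results of these data known. Values in every library are given for the 3 members of each role with the smallest paired p; of other lists the 2 genes with the highest mean and any past the threshold are named. Foxm1, Pttg1, Nuf2, Kif20a and Racgap1 values were added after they were seen, as were the 30-base stretches. Promoters came from RefSeq (GRCm38.p6), matched by symbol. Alternatives were other pseudocounts, filters, scalings, tests and libraries left out.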

Additional observations from a re-analysis of the deposited data

How the results depend on the processing

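The median difference of the 41 genes was -0.10 in the unpaired fit and was below 0 in all 25 alternatives, from -0.267 to -0.004561. Several of these could not move it: the replicate block, the filters and limma without a trend leave each member's log2 difference as it is. Scaling the recovered reads by TMM also left each member's log2 difference as it was (median -0.1021). It is thus no separate check on the deposited scaling. The median of all tested genes moved as well: members minus all genes was -0.0739 in the unpaired fit and -0.1568 without PRDM15KO replicates 2 and 3 (all genes -0.1102), and turned to 0.002764 without wild type replicate 3 (all genes -0.007325). The members' median was -0.0489 with equal totals, with or without the replicate block, and -0.267 without PRDM15KO replicates 2 and 3. With single libraries left out it ran from -0.2359 (without wild type replicate 1) to -0.004561 (without wild type replicate 3). Of the 41 genes, 15 instead of 29 were lower in all 3 pairs with equal totals. That count has no value where a library is left out or in the fits with a block or a count model.

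The number of genes called, over all tested, was 1 in the unpaired fit and 92 with the replicate block, so it depends on the pairing. It was 0 with a pseudocount of 5, with no filter, with quantile normalization, in edgeR without the block, without PRDM15KO replicates 2 and 3, and with any 1 library left out (0 to 0), and 2 at a mean of at least 5. The block gave 39 in edgeR, 738 in DESeq2 (110 without it), 129 after quantile normalization and 81 with equal totals, the last 2 added after the data were seen. In the paired fit it was 840 without replicate 1, 0 without replicate 2 and 0 without replicate 3, and the cause was not tested. Of the 41 genes, 3 were called by DESeq2 with the block and 1 (Nusap1) by limma with the block without replicate 1, and 0 in each other setting run. Each group has 3 libraries, and the fewest reads per library were those of Pttg1, 163 to 277.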
